A study of Caenorhabditis elegans with 4 samples.

Results

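The X-linked tRNA genes are the genes of biotype tRNA on chromosome X of Caenorhabditis elegans in the Ensembl annotation (release 115) of assembly WBcel235, which is the same as ce11. There were 276 of them among the 612 nuclear tRNA genes, and the other 336 lay on the autosomes. Each gene was taken with 200 bp on either side, and it was given the region of highest signal whose summit, the position of strongest enrichment in the region, fell inside that window. The rule uses annotation and position alone and no measured value, but it was set with earlier results of these data known.

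The measurement was chromatin immunoprecipitation with sequencing (ChIP-seq) for K09A11.1, a protein annotated with a BED-type zinc-binding domain. Whole hermaphrodites of strain OP372, genotype unc-119(tm4063) III; wgIs372, were collected as late embryos, with an integrated transgene for K09A11.1 that bears GFP and FLAG at the C-terminal end, and sonicated chromatin was precipitated with an antibody to GFP, so a signal averages over all cell types of the embryo. The 4 libraries formed 1 group, with 2 biological replicates of 2 technical libraries each, and no group of untagged animals was analysed here. The deposited lists hold regions called against 1 control, with a signal and a −log10 q-value per region that are the authors' own values.

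A tRNA gene is transcribed by RNA polymerase III from a promoter that lies inside the gene. The assembly factor TFIIIC binds its A box and B box, and it then places TFIIIB just before the 5′ end, where the polymerase starts, while a run of T after the gene ends transcription. Nematode genomes carry many copies of most tRNA genes, and copies that bear the same anticodon, the base triplet that pairs with the codon, are often identical over the whole gene.

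The annotated genes had these features on X. A script read an anticodon that matched the annotated amino acid in 271 of the 276 genes, for 44 different anticodons and 20 amino acids, and 12 genes held an intron. The median length was 72 bp. An A box, searched by its consensus on the gene's own strand within the first 30 bases of the spliced sequence, was present in 271 genes, and a run of 4 T within 30 bp after the gene in 273. The B box word GTTCGANNC was present on the gene's own strand in 200 genes, whereas 0.476% of 72 bp tiles of X held it on either strand. The sequences of 6 genes are shown as examples of the internal promoter. They are not the 6 strongest: genes whose sequence also occurs on 1 particular autosome were passed over, F41D9.t3 and R01H5.t1 among them. Copies on the other autosomes did not exclude a gene. ZK899.t1, for example, has 24 copies in the genome, of which 13 lie on X. The 6 had the highest pooled signals of the genes that remained. The A box and, where the word was found, the B box are in capitals (ce11, the gene's own strand, 5′ to 3′).
ZK899.t1, chrX:9467729-9467800, minus strand: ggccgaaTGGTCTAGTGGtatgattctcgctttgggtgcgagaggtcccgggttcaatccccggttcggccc
F15G9.t1, chrX:9743589-9743660, plus strand: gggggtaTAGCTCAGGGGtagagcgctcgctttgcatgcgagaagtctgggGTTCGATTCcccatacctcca
F15G9.t2, chrX:9743747-9743818, plus strand: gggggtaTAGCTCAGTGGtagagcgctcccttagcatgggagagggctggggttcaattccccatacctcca
C04A11.t1, chrX:13665555-13665673, plus strand: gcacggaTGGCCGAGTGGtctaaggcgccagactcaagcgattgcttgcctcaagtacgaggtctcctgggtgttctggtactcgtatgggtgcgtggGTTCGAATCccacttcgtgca
C33G3.t2, chrX:14063946-14064018, minus strand: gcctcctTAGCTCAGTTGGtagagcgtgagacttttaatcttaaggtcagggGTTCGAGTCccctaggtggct
C16B8.t2, chrX:3970096-3970167, plus strand: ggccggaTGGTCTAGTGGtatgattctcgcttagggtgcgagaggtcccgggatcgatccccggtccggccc
Each of the 6 began its A box match at base 8. ZK899.t1, F15G9.t2 and C16B8.t2 had no exact match to the B box word, and all 3 were among the strongest genes described below. However, F15G9.t2 shares its summit with F15G9.t1, which has the word. That summit lies inside F15G9.t1, 99 bp before the 5′ end of F15G9.t2. C16B8.t2 shares its summit with C16B8.t3, and the summit lies after the end of C16B8.t2. C04A11.t1, a tRNA-Leu gene, is the one with an intron, which lies between its boxes.

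Of the 276 X-linked tRNA genes, 64 (23.2%, exact 95% binomial interval 18.3 to 28.6) had a summit in the thresholded list, the 689 regions that passed the authors' irreproducible discovery rate filter over the replicates. For comparison, 1.26% of all 46890 annotated genes had one in a window of the same length at the 5′ end, and 0.397% of 37540 tiles of X of that length held one. The thresholded regions were also the 689 highest regions of the pooled list, so a gene has the same signal in both. The 64 genes were served by 58 distinct summits, with signals from 30.8 to 138 and a median of 60.7, against a median of 45.9 over the whole thresholded list. The intervals treat genes as independent, which neighbours that share a summit are not, and they cover counting error only.

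The 3 longer lists hold 30000 regions each and reach far below that filter. In the pooled list, 165 X-linked tRNA genes (59.8%, interval 53.7 to 65.6) had a region, against 17.6% of all genes and 13.3% of X tiles. In the replicate 1 list the count was 166 (60.1%), against 17.4% of all genes and 13.3% of tiles. In the replicate 2 list it was 148 (53.6%), against 17.3% of all genes and 14.3% of tiles. The 165 genes of the pooled list were served by 150 distinct summits. For 89 of these genes the region had a −log10 q of at least 1, and for 69 of at least 2. Many of the listed genes thus carry weak regions. No list held a region at 76 of the 276 genes.

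On the autosomes, 69 of 336 tRNA genes (20.5%, interval 16.3 to 25.3) had a thresholded summit and 211 (62.8%) a pooled region. The shares on X and on the autosomes therefore overlapped in their intervals. Signals of the called autosomal genes ran from 31.3 to 132 with a median of 46.1, which is below the X median of 60.7. Over all listed genes the medians were close, 22.6 on X and 23.2 on the autosomes in the pooled list. They were 15.2 and 15.9 in replicate 1, and 8.67 and 8.44 in replicate 2. Among the 689 highest regions of each replicate, replicate 1 gave 67 X-linked genes (24.3%) and 74 autosomal genes (22%), and replicate 2 gave 59 (21.4%) and 45 (13.4%). The gap between X and autosomes was thus wider in replicate 2 than in replicate 1. With 1 group of samples, none of these differences was tested.

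Both replicate lists held a region at 117 of the 276 genes (42.4%, interval 36.5 to 48.5). Replicate 1 was higher at 107 of the 117, and the ratio of replicate 1 to replicate 2 ran from 0.438 to 6.01 with a median of 2.03. The whole lists differed in the same direction, with a median region signal of 7.30 in replicate 1 and 4.24 in replicate 2 and highest signals of 399.8 and 164.4. The scale of the signal is not stated, so a ratio compares a gene with other genes and not the replicates with each other. Across these 117 genes, which share their libraries and many of their sequences, Pearson's r was 0.74 on the log2 scale and Spearman's rho was 0.75. The 2 summits of a gene lay a median of 47 bp apart. On the autosomes the same measures over 145 genes were 0.61, 0.61 and 46 bp.

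**Figure D1:**
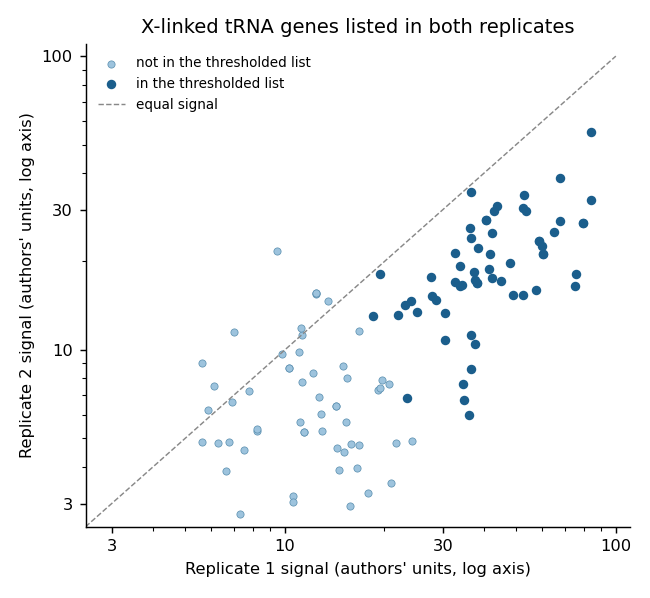
Signal of the 117 X-linked tRNA genes with a region in both replicate lists, replicate 1 on the horizontal and replicate 2 on the vertical log axis, in the authors' units; 1 point per gene, dark points are in the thresholded list. Most points lie below the line of equal signal, since replicate 1 was higher at 107 genes, and the dark points fill the upper right.

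All 64 thresholded genes also stood among the 689 highest regions of at least 1 replicate. Both replicates placed 51 of them there, replicate 1 alone 11 and replicate 2 alone 2. A region was listed in both replicates for 61 of the 64, and for the other 3, W02H3.t1, F55G7.t2 and F22F1.t4, in replicate 1 only. The thresholded list was made from the same replicates, so these counts describe it and do not check it.

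The strongest X-linked tRNA gene was F41D9.t3 (chrX:8404499-8404571, plus strand), a tRNA-Asn gene that lies in an intron of sulp-3, a sulfate permease family gene on the other strand. Its signal was 138 in the pooled list, where it ranked 27, with 84.0 in replicate 1 and 55.3 in replicate 2. The next was ZK899.t1, a tRNA-Pro gene between protein-coding genes, with 121 in the pooled list, 83.9 in replicate 1 and 32.4 in replicate 2. Both genes were high in both replicates, and F41D9.t3 had the highest replicate 2 signal of any X-linked tRNA gene.

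The neighbours F15G9.t1 and F15G9.t2, for tRNA-Ala with different anticodons, share 1 summit inside him-4, the hemicentin gene, on its own strand. That region had a signal of 107 in the pooled list, 79.6 in replicate 1 and 27.03 in replicate 2. C04A11.t1, the tRNA-Leu gene with an intron, reached almost the same pooled signal, 107, with 67.9 in replicate 1 and a higher 38.6 in replicate 2. Genes level in the pooled list could thus differ in the order of their replicate signals.

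Pooled signals from 85.1 to 93.1 came next. R01H5.t1, for tRNA-Thr, had 93.1, with 65.1 in replicate 1 and 25.3 in replicate 2. C42D8.t1, for tRNA-Ile, had 92.2, with 76.0 and 18.1. C02B4.t2, for tRNA-Tyr and inside an intron of the nuclear receptor gene nhr-17 on the other strand, also had 92.2, with 75.02 and 16.5. In these last 2 the replicate 1 signal was 4.19 and 4.54 times that of replicate 2, above the median ratio of 2.03.

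F17H10.t1, for tRNA-Gly and inside the sorting nexin gene snx-17, had 91.5 in the pooled list, 67.8 in replicate 1 and 27.6 in replicate 2. C28G1.t1, for tRNA-Glu, had 85.8, 52.6 and 30.5 in the same order, and it is the only X-linked tRNA gene inside a protein-coding gene, C28G1.2, that overlaps an annotated exon. C33G3.t2, for tRNA-Lys, had 85.1, 52.9 and 33.7. The 3 genes were close in the pooled list, and F17H10.t1 was the highest of them in replicate 1 and the lowest in replicate 2.

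The divergent neighbours M02F4.t1 (tRNA-Gly) and M02F4.t2 (tRNA-Glu) share a region of signal 84.5, with 58.7 in replicate 1 and 23.5 in replicate 2. W03G11.t1, a second tRNA-Lys gene with another anticodon, had 81.9, 59.9 and 22.5. C16B8.t2 and C16B8.t3, both for tRNA-Pro, share a region of 81.0, with 60.2 and 21.2. Each of the C16B8 genes occurs once in the genome, unlike the other genes above, whose sequences occur 6 to 29 times.

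R04D3.t2 (tRNA-Val, 2 copies in the genome) had 79.1, with 53.4 in replicate 1 and 29.7 in replicate 2. F38G1.t2 (tRNA-Asp, in an intron of the fibroblast growth factor gene egl-17) had 73.3, with 42.8 and 29.8. R04A9.t1 (tRNA-Gln) had 73.2, with 43.8 and 30.8. C06G1.t1 (tRNA-His) had 72.7, with 36.6 and 34.6, the lowest ratio of the called genes listed in both replicates, and it ranked 253 in replicate 1 and 63 in replicate 2. These 4 close the 20 highest genes, all of which had a region in both replicates.

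At the other end of the ratio stood C30E1.t1 and R02E12.t1, both for tRNA-Gly, and C02B4.t2 above. C30E1.t1 had 42.7 in the pooled list, 36.1 in replicate 1 and 6.004 in replicate 2, a ratio of 6.01, and it ranked 265 in replicate 1 and 6386 in replicate 2. R02E12.t1 had 36.1, 34.8 and 6.74, a ratio of 5.16. Ratios next lowest to that of C06G1.t1 were found at F12D9.t2 (tRNA-Glu), with 35.95, 19.3 and 18.2, and T14F9.t1 (tRNA-Asp), with 65.4, 36.2 and 25.9.

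The filter cut through a continuous range of signals. Just inside it were F55G7.t2 (tRNA-Thr) with 32.5 and the pair F22F1.t4 (tRNA-Ser) and F22F1.t5 (tRNA-Asp) with a shared 30.8. Just outside were F19H6.t1 (tRNA-Glu) with 29.7, F22F1.t7 (tRNA-Ile) with 29.1 and rte-1 (tRNA-Glu) with 28.8. Because the rule counts a summit for every gene whose window holds it, F22F1.t4 owes its call to a summit 269 bp from its 5′ end that lies 21 bp before F22F1.t5.

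Among the 20 amino acids, all but tryptophan had at least 1 X-linked gene with a thresholded summit. The tRNA-Pro genes had the most, 7 of 20, followed by 6 of 13 for tRNA-Ala, 6 of 20 for tRNA-Gly and 6 of 23 for tRNA-Glu. For tRNA-Gln it was 1 of 15, and for tRNA-Trp 0 of 5, which with so few genes allows a share of up to 52.2%. On the autosomes the order differed, with 4 of 22 for tRNA-Pro, 4 of 21 for tRNA-Ala, 2 of 35 for tRNA-Gly and 9 of 28 for tRNA-Lys. Lysine stood at 3 of 18 on X.

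The strongest genes of the remaining amino acids other than tryptophan were inside the list. F28H6.t1 (tRNA-Arg) had 69.7, E03E2.t1 (tRNA-Ser, in an intron of cat-1, the vesicular monoamine transporter gene) 69.1, F42D1.t1 (tRNA-Cys) 65.4 and T28B4.t1 (tRNA-Phe, in an intron of the F-box gene fbxl-4) 63.9 in the pooled list. C02F12.t1 (tRNA-Met) had 44.7, with 36.5 in replicate 1 and 8.58 in replicate 2. The highest tRNA-Trp gene, sup-7, the locus of classic amber suppressor mutations, was outside the list with 28.5 in the pooled list and rank 761. Its signal was 9.50 in replicate 1 and 21.7 in replicate 2, which put it at rank 212 of replicate 2 and rank 7188 of replicate 1, the lowest ratio of the 117 genes.

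**Figure D2:**
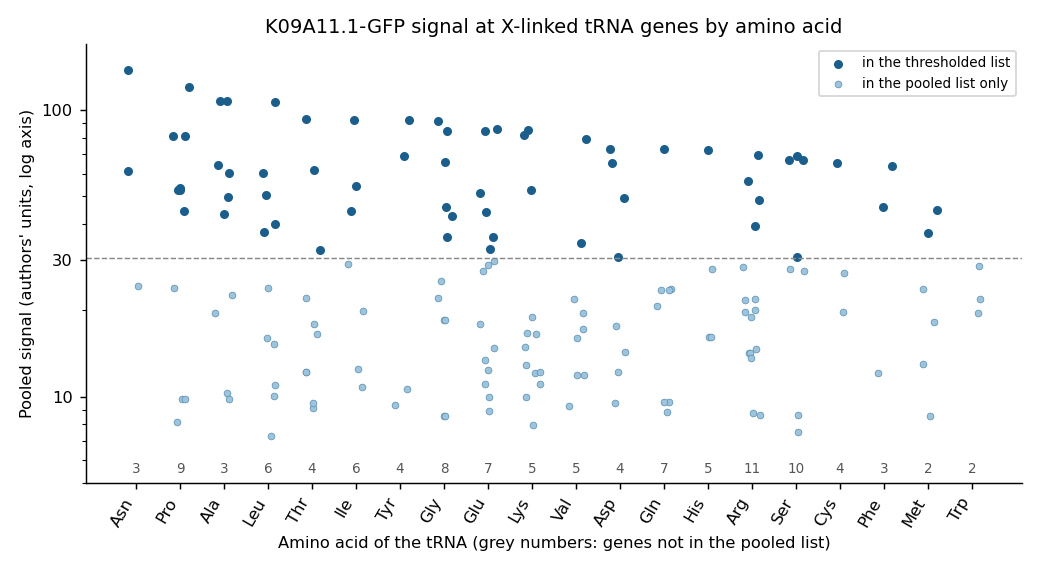
Pooled signal (log axis, authors' units) of each X-linked tRNA gene by the amino acid its tRNA carries, 1 point per gene; dark points are in the thresholded list, the dashed line is that list's lowest signal and grey numbers count the genes with no pooled region. Every amino acid but tryptophan has a dark point, and every amino acid also has genes with no region.

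Within an amino acid, anticodons differed in their counts. All 3 tRNA-Ala genes with anticodon TGC were called but 2 of 9 with AGC. For tRNA-Gly it was 3 of 4 with GCC and 3 of 16 with TCC, and for tRNA-Glu 4 of 8 with TTC and 2 of 15 with CTC. None of the 10 tRNA-Val genes with AAC was called, although 7 had a pooled region, and 1 of 13 tRNA-Lys genes with CTT was. Counts this small have wide intervals, for example 0 to 30.8% for the tRNA-Val genes, and no difference between anticodons was tested.

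Genes of identical spliced sequence differed widely in signal. The 276 genes hold 104 distinct spliced sequences, 223 of them share theirs with another nuclear tRNA gene, and the most frequent sequence has 29 copies in the genome. For 20 sequences at least 5 copies lie on X, 163 genes in all. Every one of these 20 families had at least 1 called copy and at least 1 that was not called. The 13 X-linked copies of tRNA-Pro with anticodon TGG, for example, included 4 called genes, 4 with a weaker pooled region and 5 with none, and pooled signals in the family ran from 8.15 to 121.

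**Figure D3:**
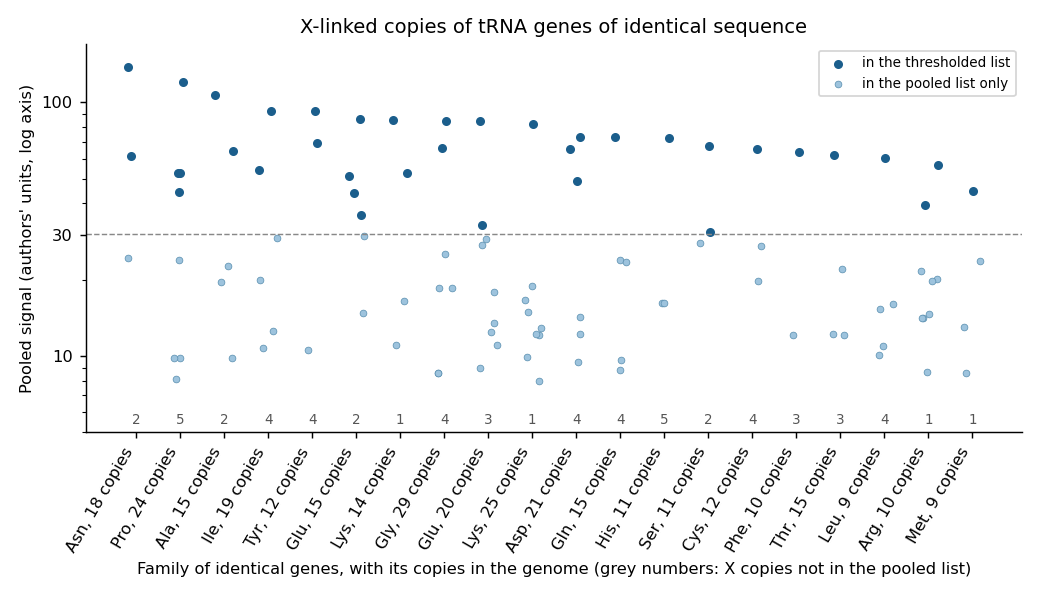
Pooled signal (log axis, authors' units) of the X-linked copies of 20 families of tRNA genes of identical spliced sequence with at least 5 copies on X, 1 point per copy; dark points are in the thresholded list, the dashed line is that list's lowest signal and grey numbers count the copies with no pooled region. Every family holds both dark points and copies that are weaker or not listed.

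In 19 of the 20 families the X-linked copies are identical over the whole gene, and in tRNA-Tyr (GTA), whose genes hold an intron, the whole gene has 2 forms. The 60 bases before the gene were compared next, after the values had been seen. Over the 512 words of 5 letters, counting both strands, AGAGA had the largest difference on X between called genes (31 of 64, 48.4%) and the others (34 of 212, 16%). GAGAG, which is CTCTC on the other strand and overlaps AGAGA, came next with 30 called genes (46.9%) and 32 others (15.1%). The autosomal genes did not enter the ranking on X and had the same 2 words at the head. GAGAG was before 39.1% of called autosomal genes and 15.4% of others, and AGAGA before 46.4% and 24.7%. AAGAG ranked 3 on X and 18 on the autosomes and was left out. Both rankings were made in the same step, so the autosomal genes were not held apart from the choice of 2 words. At the other end were words of A and T, with AAAAT in 14.1% of called X-linked genes and 42% of the others.

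The tRNA-Asn and tRNA-Pro families are shown as examples, chosen after their values were seen, since the first holds the strongest X-linked gene and the second is the largest on X. Shown are the 60 bases before each X-linked copy, 5′ to 3′ on the gene's strand and ending just before the gene, with AGAGA and GAGAG on either strand in capitals (ce11). For tRNA-Asn with anticodon GTT all 5 copies are given in order of pooled signal.
F41D9.t3, chrX:8404439-8404498, plus strand: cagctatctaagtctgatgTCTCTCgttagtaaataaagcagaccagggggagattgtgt
F52H2.t2, chrX:2549601-2549660, minus strand: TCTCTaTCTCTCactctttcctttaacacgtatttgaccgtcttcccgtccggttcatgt
ZK154.t5, chrX:7774038-7774097, minus strand: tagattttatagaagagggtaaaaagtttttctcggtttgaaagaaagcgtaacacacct
ZK154.t2, chrX:7773658-7773717, plus strand: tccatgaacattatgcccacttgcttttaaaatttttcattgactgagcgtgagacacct
T04F8.t1, chrX:11645623-11645682, plus strand: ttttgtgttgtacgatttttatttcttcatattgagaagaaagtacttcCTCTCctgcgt
The first and the second of these were called, at 138 and 61.3, and both carry the words. ZK154.t5 had 24.3 in the pooled list, and ZK154.t2 and T04F8.t1 were not in it; among these 3 the words were found before T04F8.t1 only. For tRNA-Pro with anticodon TGG all 13 copies are given, the 4 called copies first, then the 4 with a weaker pooled region and then the 5 with none.
ZK899.t1, chrX:9467801-9467860, minus strand: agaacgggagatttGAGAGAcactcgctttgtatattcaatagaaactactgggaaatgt
F46G11.t2, chrX:5801283-5801342, minus strand: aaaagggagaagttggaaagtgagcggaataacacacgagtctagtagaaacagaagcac
F46G11.t1, chrX:5801412-5801471, plus strand: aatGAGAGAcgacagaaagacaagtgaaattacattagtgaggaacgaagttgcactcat
H06A10.t1, chrX:13512042-13512101, minus strand: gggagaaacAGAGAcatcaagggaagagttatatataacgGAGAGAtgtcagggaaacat
C16B8.t1, chrX:3969496-3969555, plus strand: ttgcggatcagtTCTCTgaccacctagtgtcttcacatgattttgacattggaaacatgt
C48C5.t3, chrX:8969560-8969619, minus strand: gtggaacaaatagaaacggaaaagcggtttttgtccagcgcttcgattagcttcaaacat
C48C5.t1, chrX:8969678-8969737, plus strand: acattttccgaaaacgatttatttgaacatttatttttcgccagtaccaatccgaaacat
ZK678.t3, chrX:15751360-15751419, plus strand: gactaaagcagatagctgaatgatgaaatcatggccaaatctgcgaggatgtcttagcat
R04D3.t3, chrX:13307970-13308029, plus strand: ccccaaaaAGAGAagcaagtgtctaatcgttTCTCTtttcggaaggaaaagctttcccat
F23D12.t2, chrX:14437945-14438004, minus strand: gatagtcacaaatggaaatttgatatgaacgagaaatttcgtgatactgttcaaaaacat
F23D12.t1, chrX:14438042-14438101, plus strand: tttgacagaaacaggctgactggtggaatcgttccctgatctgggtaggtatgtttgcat
Y7A5A.t3, chrX:15796695-15796754, minus strand: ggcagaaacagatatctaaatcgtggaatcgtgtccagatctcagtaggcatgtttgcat
Y7A5A.t2, chrX:15796795-15796854, plus strand: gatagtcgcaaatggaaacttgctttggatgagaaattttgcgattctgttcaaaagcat
The called copies had 121, 52.7 (a region shared by F46G11.t2 and F46G11.t1) and 44.4. The words were present before 3 of the 4 called copies and before 2 of the 9 others, which were C16B8.t1, with a pooled signal of 24.0, and the unlisted R04D3.t3. Some unlisted flanks are close to each other, so these copies are not independent: without gaps, F23D12.t2 and Y7A5A.t2 are identical at 50 of 60 bases and F23D12.t1 and Y7A5A.t3 at 38.

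Over all X-linked tRNA genes, 36 of the 80 with either word in those 60 bases had a thresholded summit (45%), against 28 of the 196 without (14.3%). The words were picked for this difference in the same genes, so the shares on X, here and below, describe that choice and do not check it. For comparison, 14.4% of 60-base tiles of X held either word. Among the 689 highest regions of replicate 1 the shares were 48.8% and 14.3%, and of replicate 2 they were 41.2% and 13.3%. The listed genes with the words had a median pooled signal of 43.4 and those without 18.9, with ranges that overlapped widely. In the 60 bases after the gene 3 of 17 genes with the words were called (17.6%) and 61 of 259 without (23.6%). On the autosomes, 43 of 122 genes with the words before them were called (35.2%, interval 26.8 to 44.4). Without the words it was 26 of 214 (12.1%, interval 8.09 to 17.3). These genes did not enter the ranking on X, but their own ranking was made in the same step. Their shares are therefore not an independent check of the words.

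Over the 20 families of identical genes, the words stood before 18 of 37 called copies (48.6%) and 23 of 126 other copies (18.3%). By family, the share with the words was higher in the called copies in 10 families, equal in 7, most of them with no word at all, and lower in 3, which were tRNA-Glu (CTC), tRNA-Ile (AAT) and tRNA-Cys (GCA). A match is a sequence description here, and the part the words play in the signal was not tested.

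The base composition of the same 60 bases moved with the calls too. Thresholded summits were found at 4 of 89 X-linked genes with up to 35% G and C there (4.49%), at 14 of 58 from 35 to 40% (24.1%), at 17 of 53 from 40 to 45% (32.1%), at 16 of 44 from 45 to 50% (36.4%) and at 13 of 32 above 50% (40.6%). The autosomal series was 1.67%, 14%, 26.4%, 25.4% and 30%. In 19 of the 20 families the called copies had a higher median GC content before the gene than the others, and tRNA-Pro (TGG) was the exception at 40% against 41.7%. After the gene, medians were 25.8% in called genes and 26.7% in genes with no pooled region. X tiles away from tRNA genes also held more thresholded summits at higher GC content, from 0% of tiles with up to 30% to 1.45% of those above 45%, while the share with a pooled region fell from 14% to 11.4%. How GC content enters the authors' signal was not tested.

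Words and GC content could be set side by side. With up to 40% G and C before the gene, 11 of 30 X-linked genes with the words (36.7%) and 7 of 117 without (5.98%) were called. Above 40% it was 25 of 50 (50%) and 21 of 79 (26.6%). These X values again come from the genes on which the words were picked. On the autosomes, with up to 40%, 4 of 28 genes with the words (14.3%, interval 4.03 to 32.7) and 5 of 89 without (5.62%, interval 1.85 to 12.6) were called, and these intervals overlap. Above 40% it was 39 of 94 (41.5%, interval 31.4 to 52.1) and 21 of 125 (16.8%, interval 10.7 to 24.5), which do not overlap. The autosomal genes were not held apart from the choice of words either, so these intervals describe the genes and do not check the words.

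**Figure D4:**
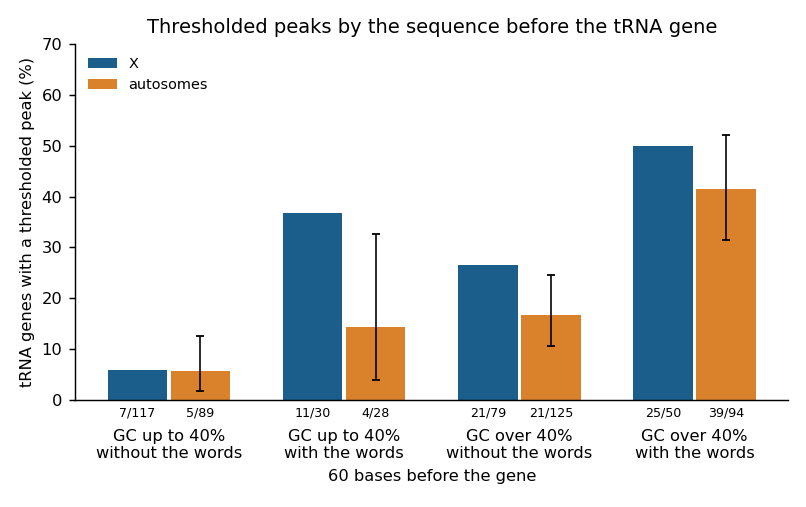
Share of tRNA genes with a thresholded peak by GC content of the 60 bases before the gene and by the words AGAGA or GAGAG there, for X and autosomes; bars start at 0, whiskers on the autosomal bars are exact 95% binomial intervals and the numbers give called over all genes. The X bars have none, since the words were picked on the X-linked genes. The autosomal whiskers overlap at low GC content and are apart at high GC content. The autosomal genes were not held apart from the choice of words either, so their whiskers do not check it.

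Summits of called genes lay in or close to the gene, with a median near its 5′ end. At the 64 called X-linked genes the median summit was 16 bp after the 5′ end (interval 3 to 30), and 36 summits (56.2%) fell inside the gene, 22 before it and 6 after it. The 44 called genes with no other tRNA gene within 1000 bp had a median of 22 bp, a range from 27 bp before the 5′ end to 133 bp after it, and 28 summits inside the gene (63.6%). In the replicate lists the medians over all listed X-linked genes were 27.5 bp (interval 17 to 42) and 27 bp (interval 5 to 44). At called autosomal genes the median was 24 bp (interval 5 to 47). The 2 replicate summits of a called X-linked gene lay a median of 28 bp apart, so the lists do not place a summit finely within a gene of 72 bp. Of the 6 summits after the gene, 4 belonged to genes with no close neighbour. Those further out, down to 108 bp before and up to 269 bp after the 5′ end, were at genes with a close neighbour.

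**Figure D5:**
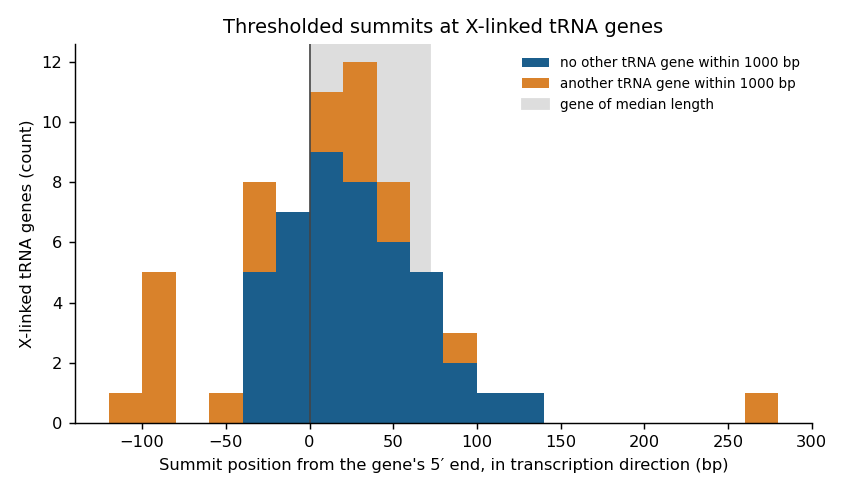
Position of the thresholded summit from the 5′ end of the 64 called X-linked tRNA genes in bins of 20 bp, in transcription direction; the vertical axis counts genes, colours separate genes with and without another tRNA gene within 1000 bp, and the grey band is a gene of the median length of 72 bp. The genes without a close neighbour lie between -27 and 133 bp.

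Of the 58 summits, 6 served a pair of genes each. In the pairs F15G9.t1 with F15G9.t2, C16B8.t2 with C16B8.t3 and F22F1.t4 with F22F1.t5 both genes lie on the same strand, and in M02F4.t1 with M02F4.t2, F46G11.t1 with F46G11.t2 and C53C7.t1 with C53C7.t2 on opposite strands. Their starts lie 158 to 290 bp apart, below the median region width of 340 bp. The region shared by F22F1.t4 and F22F1.t5 begins at 8155561, after F22F1.t4 ends at 8155543, and it holds F22F1.t5. In the other pairs, which gene carries the signal cannot be told apart, although a summit can lie nearer to 1 gene. The F15G9 summit lies inside F15G9.t1 and 99 bp before F15G9.t2. The M02F4 summit lies 24 bp before M02F4.t1 and 93 bp before M02F4.t2. The C16B8 summit lies between its genes, 82 bp after the 5′ end of C16B8.t2 and 87 bp before C16B8.t3.

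The called share was lower where another tRNA gene lay close by. Among the X-linked genes, 20 of 135 with another tRNA gene under 1000 bp away were called (14.8%, interval 9.29 to 21.9), against 44 of 141 others (31.2%, interval 23.7 to 39.5). The share was highest, 31 of 76 (40.8%), where the next tRNA gene lay at least 10000 bp away. On the autosomes the 2 shares were 16.8% and 22.1%. GC content before the gene moved with this, since 88 of the 135 genes with a close neighbour and 59 of the 141 others had up to 40%. At that level 7 of the 88 (7.95%) and 11 of the 59 (18.6%) were called, and above it 13 of 47 (27.7%) and 33 of 82 (40.2%). These differences were not tested.

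X has 2 groups of 6 tRNA genes less than 1000 bp apart, and they differed. F22F1.t2 to F22F1.t7 span 2263 bp from 8154445 to 8156707 and encode tRNAs for serine, aspartate, methionine and isoleucine. In the pooled list F22F1.t6 (tRNA-Met) had 37.2, F22F1.t4 and F22F1.t5 the shared 30.8, F22F1.t7 29.1, and the leftmost, F22F1.t2 and F22F1.t3, had no region. F28H6.t2 to F28H6.t7 span 1966 bp from 14135045 to 14137010 and are 6 identical tRNA-His genes in alternating orientation. F28H6.t2 and F28H6.t7 shared a pooled region of 16.1, with 11.4 in replicate 1 and 5.26 in replicate 2, and the other 4 had no region in any list. For F28H6.t3 and F28H6.t4 no stretch of 36 bases in the gene and its 50 bp flanks occurs once in the genome, so no sequence of that length is particular to them.

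The called share differed along X. Of 3 equal parts of the chromosome, the left held 22 called of 51 genes (43.1%, interval 29.3 to 57.8), the middle 19 of 107 (17.8%, interval 11.0 to 26.3) and the right 23 of 118 (19.5%, interval 12.8 to 27.8). The left part also had the highest median pooled signal of listed genes, 44.7 against 20.7 and 19.6. Replicate 1 placed 24, 20 and 23 genes of these parts among its 689 highest regions and replicate 2 placed 20, 16 and 23. The boundaries were drawn after the values were seen, and the difference was not tested.

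By position relative to protein-coding genes, called genes were 42 of 180 between protein-coding genes (23.3%), 12 of 45 in introns on the other strand (26.7%) and 9 of 50 in introns on the same strand (18%), besides C28G1.t1. Of the 50 genes within 1000 bp before or 200 bp after a protein-coding 5′ end, 11 were called (22%), as were 53 of the 226 others (23.5%). Of the 12 genes with an intron 4 were called (33.3%, interval 9.92 to 65.1). With the B box word 46 of 200 genes were called (23%) and without it 18 of 76 (23.7%). An A box match was present in 271 genes, and all 64 called genes were among them. None of the 5 genes without one was called (interval 0 to 52.2%), which is too few genes to tell them from the others.

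The called share also differed by the number of identical copies. Genes whose sequence occurs once in the nuclear tRNA gene set were called in 6 of 53 cases (11.3%, interval 4.27 to 23.03), those with 2 to 9 copies in 20 of 62 (32.3%) and those with at least 10 copies in 38 of 161 (23.6%). How the authors' alignment placed reads that fit several copies is not given in the sources used here. At least 1 stretch of 36 bases found once in the genome lay in the gene or within 50 bp of it for 274 of the 276 genes. Inside the gene the median share of such stretches was 0% in called genes, in genes with a weaker pooled region and in genes with none, while 56.2% of the called summits fell inside the gene. With the 50 bp flanks the median share was 64.1% in called genes, 65.2% in genes with a weaker pooled region and 65.2% in genes with none. Its part in the counts was not tested.

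Genes of the same transcription system were read for comparison. None of 18 genes for RNA polymerase III subunits, its factors TFIIIB and TFIIIC, the regulator mafr-1 and the snRNA activating complex had a thresholded summit from 1000 bp before to 200 bp after a 5′ end (interval 0 to 18.5%), and none of 14 matched genes of tRNA processing and modification, such as elpc-1 and xpo-3, had one (interval 0 to 23.2%). Over all protein-coding genes, 498 of 19973 had one (2.49%), so lists of this size do not tell the 2 sets from it. Among other RNAs made by RNA polymerase III, the RNase P RNA gene rpr-1 had 62.6 in the pooled list, 44.1 in replicate 1 and 21.8 in replicate 2, and 1 of 5 signal recognition particle RNA genes, srpr-2.2, had 41.1, 24.0 and 15.2, while 4 of the 5 had a pooled region. None of 16 annotated 5S rRNA genes was in any list. Most of these share a name and lie close together on chromosome V. Whether they hold stretches found once in the genome was not counted, so their absence cannot be read as a lack of signal. U6 snRNA genes were not examined. K09A11.1 itself lies on X (13262495 to 13264589) and had no thresholded summit at its 5′ end, and its nearest tRNA gene, K08H2.t1, a tRNA-Thr gene whose start is 1292 bp away, was in no list.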

How the data were processed

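ChIP-seq was measured in 4 libraries of 1 group. Per the labels and the deposited notes, the authors merged the 2 technical libraries of each biological replicate, called regions against 1 control and filtered them over the replicates. The sources used here give no aligner, caller, version or threshold and no read counts, so depth is unknown. The deposited lists give each region's signal, whose scale is not stated, and a −log10 q-value, both made by the authors. The ce11 lists were used, the ce10 versions were not.

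From these, each tRNA gene was given its strongest region by summit. Gene positions came from Ensembl release 115, amino acids from RefSeq's WBcel235 annotation by gene ID. Shares have exact Clopper-Pearson intervals, medians order-statistic intervals. With 1 group no test was made. Python 3.11.15, pandas 2.3.3, scipy 1.17.1 and biopython 1.88 were used, and the assignment was tested on simulated data. Named genes are the 20 of highest pooled signal, the highest of each amino acid, the 3 just inside and outside the filter, the 3 called genes of highest and lowest replicate ratio, the largest neighbour groups and K09A11.1; other names were chosen after their values were seen. The members and lists were chosen with earlier results of these data known. Alternatives varied windows, summit rule, list depth, copies, replicates and flank length.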

Additional observations from a re-analysis of the deposited data

How the results depend on the processing

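The share of called X-linked genes, 23.2%, stayed within its interval under 7 of 10 alternatives. It was 13% for summits inside the gene and 16.7% in the stricter 344 regions. With each distinct sequence counted once, and called when any of its copies was, it was 41.3% (43 of 104). This last share counts sequences and not genes, so both its parts differ from those of the main share. The autosomal share of 20.5% was 10.7%, 10.4% and 32.3% under the same settings. Leaving out replicates in turn gave 21.4% to 24.3% on X, 13.4% to 22% on the autosomes, median summits of 17 to 26 bp, and, for genes with and without the words AGAGA or GAGAG, 41.2% to 48.8% and 13.3% to 14.3%. The median summit offset stayed within its interval under its 6 alternatives, from 16 to 26 bp. The share listed in both replicates, 42.4%, was 36.2% with a 100 bp window, 53.6% with 500 bp, 27.9% in the 5000 highest regions and 49.3% by interval overlap. Fewer or more positions and regions enter under these settings by construction. The words were picked on these X-linked genes. Flanks of 30 and 120 bases and isolated genes only, chosen after the data were seen, gave 41.8% to 55.1% with the words and 10.8% to 19.7% without. No paired analysis was possible because there is only 1 group. The lists hold no read counts, so whether an unlisted gene lacks signal or lacks depth cannot be told apart.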
